A study of Mus musculus with 6 samples.

Results

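Stand-alone lncRNA promoters are the start regions of long non-coding RNA genes that lie away from any protein-coding gene, and they were read here in ATAC-seq peak lists from mouse spermatogonia. A gene was taken as a member when it was annotated as lncRNA, had a known strand, lay on chromosomes 1 to 19 and had its 5′ end more than 5 kb from every protein-coding gene. The promoter was the window from 1 kb before to 1 kb after that 5′ end (2001 bp), on mm10. There were 6269 such promoters among 31192 lncRNA and protein-coding promoters with a known strand on these chromosomes, and among 11065 lncRNA promoters. The rule used only the annotation, not the peaks. Around the limit of 5 kb the calls were alike: 52 of the 134 lncRNA promoters 5 to 6 kb from a protein-coding gene (38.8%) had a peak in all 6 libraries, as had 49 of the 125 promoters 4 to 5 kb away (39.2%), which the rule left out.

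SIRT7 is a histone deacetylase of the sirtuin family, and the libraries address whether chromatin is opened or closed in male germ cells that lack it. In ATAC-seq the Tn5 transposase inserts adapters into open chromatin, so that accessible sites gather fragments and are called as peaks. The cells were labelled Pnd 5 (postnatal day) spermatogonia, which are germ cells that still divide by mitosis and include the stem cells of the testis. Per the study's methods the mice were of the 129S1/Sv background, somatic cells were depleted by enzymatic digestion and plating, and 50000 cells entered each library. The S7KO group (3 libraries) came from Sirt7 knockout mice and the WT group (3 libraries) from wild-type mice, with no treatment named for either. Libraries are named by genotype and title number (replicates 1, 2 and 4 of each); their descriptions carry other numbers (2, 3 and 4 in the same order), so a number is only a name. The study's methods give 3 independent biological replicates for ATAC-seq. Nothing in the labels says whether each came from a separate animal or from pooled testes, so p-values measure the spread between these samples.

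Long non-coding RNAs are transcripts that are spliced and processed much like messenger RNAs but encode no known protein. Many start inside or beside a protein-coding gene and share its promoter; those that stand alone depend on a promoter of their own, often one that evolved recently, is poor in CpG dinucleotides and is used in few tissues. The testis transcribes more lncRNA genes than most other tissues, mainly in germ cells from meiosis onward, whereas spermatogonia are at an earlier stage. A few stand-alone lncRNAs are well known: Malat1 and Neat1 are abundant nuclear RNAs, of which Neat1 builds the paraspeckle, and the Snhg genes are hosts whose introns release small nucleolar RNAs.

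The sequences of 6 members that were called in every library follow. They do not stand for the members as a whole: their ratios of observed to expected CpG ran from 0.107 to 1.26, and the median over all members with sequence was 0.210. They are printed 5′ to 3′ on the strand of the gene, from 250 bases before to 50 after the annotated start, as given by RefSeq on GRCm38.p6, with each CpG dinucleotide in capitals. D130051D11Rik, Gm33560 and Gm40720 are the 3 members whose peak ranked best in its worst library. Malat1 and Snhg5 are widely expressed lncRNAs that were called in every library, and Halr1 is the known member with the widest gap in covered length between the genotypes.

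D130051D11Rik: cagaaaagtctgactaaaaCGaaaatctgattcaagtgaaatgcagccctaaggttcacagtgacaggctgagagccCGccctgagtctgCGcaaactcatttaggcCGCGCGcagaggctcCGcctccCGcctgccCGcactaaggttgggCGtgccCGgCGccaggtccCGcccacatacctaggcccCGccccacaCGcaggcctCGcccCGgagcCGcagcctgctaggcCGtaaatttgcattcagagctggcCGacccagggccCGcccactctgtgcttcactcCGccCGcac
Gm33560: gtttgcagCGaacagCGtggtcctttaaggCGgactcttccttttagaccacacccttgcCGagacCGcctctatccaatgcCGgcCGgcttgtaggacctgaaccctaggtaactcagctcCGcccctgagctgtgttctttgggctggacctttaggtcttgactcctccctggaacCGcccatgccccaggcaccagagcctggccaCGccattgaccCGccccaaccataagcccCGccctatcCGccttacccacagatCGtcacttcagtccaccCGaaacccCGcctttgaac
Gm40720: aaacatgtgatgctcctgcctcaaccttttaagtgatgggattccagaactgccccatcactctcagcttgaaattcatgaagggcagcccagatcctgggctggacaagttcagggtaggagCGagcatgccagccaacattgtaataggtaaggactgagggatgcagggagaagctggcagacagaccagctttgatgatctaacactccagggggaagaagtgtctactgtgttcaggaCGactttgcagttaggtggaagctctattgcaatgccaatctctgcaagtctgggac
Malat1: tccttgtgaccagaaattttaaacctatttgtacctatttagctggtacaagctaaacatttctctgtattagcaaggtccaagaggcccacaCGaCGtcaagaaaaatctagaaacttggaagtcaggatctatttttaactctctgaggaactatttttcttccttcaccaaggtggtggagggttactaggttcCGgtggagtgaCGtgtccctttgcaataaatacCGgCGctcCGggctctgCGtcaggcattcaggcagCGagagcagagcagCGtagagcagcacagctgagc
Snhg5: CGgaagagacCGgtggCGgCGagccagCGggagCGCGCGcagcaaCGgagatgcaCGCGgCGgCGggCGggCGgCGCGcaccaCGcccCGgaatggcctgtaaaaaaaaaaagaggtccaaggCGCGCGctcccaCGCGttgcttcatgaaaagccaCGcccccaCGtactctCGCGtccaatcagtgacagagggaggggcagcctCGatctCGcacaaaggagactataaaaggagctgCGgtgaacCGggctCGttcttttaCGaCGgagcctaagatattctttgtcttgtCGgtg
Halr1: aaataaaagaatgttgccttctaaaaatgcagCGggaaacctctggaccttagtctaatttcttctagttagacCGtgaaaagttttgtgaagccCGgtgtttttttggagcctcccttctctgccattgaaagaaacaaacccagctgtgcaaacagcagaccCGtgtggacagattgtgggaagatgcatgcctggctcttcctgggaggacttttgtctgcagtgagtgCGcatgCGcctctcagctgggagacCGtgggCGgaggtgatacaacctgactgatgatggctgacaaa

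D130051D11Rik lies at chr15:85634346-85634645 on the plus strand and holds 23 CpG in these 300 bases, and Gm33560 at chr7:141122981-141123280 on the plus strand holds 16. Gm40720 at chr10:82177886-82178185 on the plus strand holds 2, so that a very strong peak also stood on a CpG-poor promoter. Malat1 at chr19:5802623-5802922 on the minus strand holds 10, Snhg5 at chr9:88522848-88523147 on the minus strand holds 36, and Halr1 at chr6:52102699-52102998 on the plus strand holds 8.

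The peak lists held between 105754 and 133695 peaks, 739535 in all, and the read depth behind them is not given by the lists. WT replicate 2 had the fewest peaks and stood apart from the other 5 libraries in several values that follow. The Sirt7 promoter was inside a peak in all 6 libraries (1212 to 1779 bp covered in S7KO, 1779 to 1795 bp in WT), which does not test the deletion, since the deleted part was not located here. Promoters of germ cell markers such as Zbtb16, Gfra1 and Ddx4 had a peak in all 6 libraries for 12 of 12 genes. So did 8 of 8 Sertoli cell markers and 7 of 7 peritubular myoid and stromal markers, 4 of 7 Leydig cell markers, 3 of 4 endothelial markers and 1 of 5 macrophage and blood markers. Of all gene promoters 59.8% had a peak in all 6 libraries, so these counts alone do not show which cell types were present. Open promoters of somatic markers were thus present in both genotypes, the part of other testis cells in the lncRNA calls was not tested, and fewer cells of a type cannot be told apart here from less open chromatin per cell.

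About 4 in 10 stand-alone lncRNA promoters overlapped a peak in any given library. In S7KO replicates 1, 2 and 4, 2443, 2515 and 2563 of the 6269 promoters were called, that is 39.0%, 40.1% and 40.9%. In WT replicates 1, 2 and 4 the numbers were 2416, 2248 and 2547, that is 38.5%, 35.9% and 40.6%. WT replicate 2 was lowest, WT replicate 4 was above both S7KO replicates 1 and 2, and the groups overlapped. The 95% Wilson interval, which covers counting error only, was 37.8% to 40.2% in S7KO replicate 1 and 34.7% to 37.0% in WT replicate 2. Lists with more peaks on the whole held more called members, at 19.1 to 21.3 called members per 1000 peaks, and WT replicate 2, with the shortest list, had the highest such value.

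The called promoters were much the same set from library to library. Of the 6269 promoters, 2086 (33.3%) had a peak in all 6 libraries, 3446 (55.0%) had none in any, and the 737 that remained were spread over 1 to 5 libraries with 124 to 179 in each class. Over all gene promoters the share with a peak in all 6 libraries was 59.8%, so stand-alone lncRNA promoters were less often open throughout than the background. Between 11 and 52 members were called in 1 library alone, and WT replicate 2 was the only library without a peak at 109 members, against 8 to 26 for each of the other 5. Of the members, 483 (7.71%) lay in stretches of at least 100 kb that hold no peak in any list, where the lists used here may be incomplete. Without them the share in all 6 libraries was 36.0% of 5786, a rise that follows from leaving out windows chosen for lack of peaks.

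**Figure D1:**
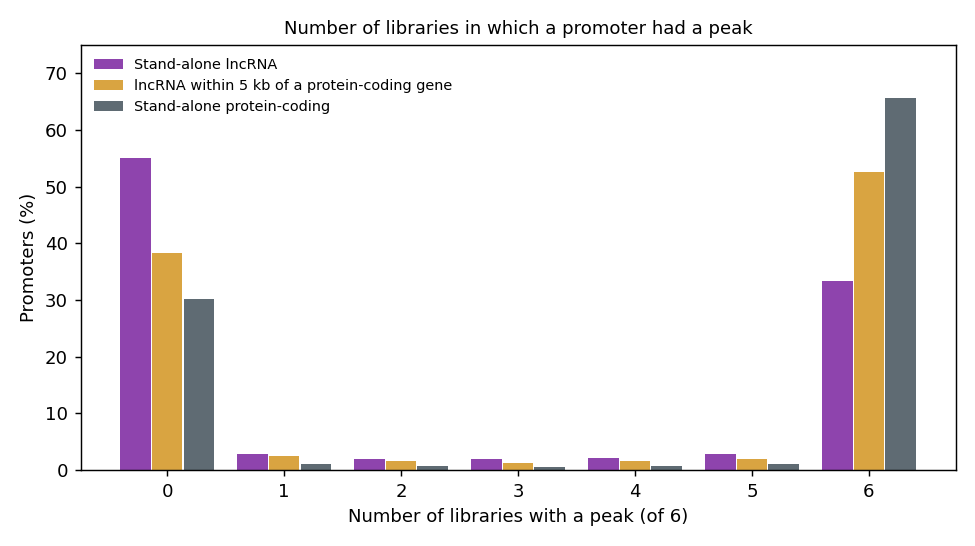
Share of promoters (%) by the number of libraries, of 6, in which they had a peak, for stand-alone lncRNA promoters (n = 6269), lncRNA promoters within 5 kb of a protein-coding gene (n = 4796) and stand-alone protein-coding promoters (n = 13604). Most promoters of each kind sit at 0 or at 6 libraries; for stand-alone lncRNAs the bar at 0 (55.0%) is the taller, for the other kinds the bar at 6 (52.5% and 65.6%).

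Stand-alone lncRNA promoters were called less often than protein-coding promoters that also lay more than 5 kb from any other protein-coding gene. The share was 39.2% ± 1.86 (SD, n = 6 libraries) against 67.7% ± 0.686, a difference of −28.6 percentage points that ran from −30.6 to −27.5 across libraries. They were also called less often than lncRNA promoters within 5 kb of a protein-coding gene, at 56.9% ± 1.30, a difference of −17.7 points with a range of −18.8 to −17.1. Both differences had the same sign in 6 of 6 libraries, and the exact two-sided sign-flip test over libraries gave p = 0.031 (adjusted p = 0.031 over the 3 comparisons), the smallest value that 6 libraries allow. The near class includes starts inside a protein-coding gene. Its windows can hold the promoter of the protein-coding gene itself, and such peaks were not separated. Leaving out windows in the stretches without any peak moved the first difference to −36.2 points and the second to −16.3. These stretches are defined by the absence of peaks, so leaving them out raises the called shares and does not test the differences. They held 7.71% of stand-alone lncRNA, 13.9% of stand-alone protein-coding and 3.07% of near lncRNA promoters. With windows of 3 kb either side the difference from protein-coding promoters shrank to −18.4 points, with the same sign.

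The peaks at called stand-alone lncRNA promoters were narrower than those at stand-alone protein-coding promoters. The peak at a called stand-alone lncRNA promoter had a median width of 966, 954 and 971 bp in S7KO replicates 1, 2 and 4 and of 995, 873 and 956 bp in WT replicates 1, 2 and 4. At stand-alone protein-coding promoters the median was 1433 bp ± 48.1 (SD, n = 6 libraries), against 952.5 bp ± 41.6 at the lncRNA promoters. The difference was −480.3 bp, between −501 and −465 bp in the 6 libraries (exact two-sided sign-flip test over libraries, p = 0.031, adjusted p = 0.031). In a typical called window there was 1 peak, and between 1.43% and 2.26% of called windows held more than 1. The peaks at the lncRNA promoters also ranked lower in lists sorted by q-value, with the strongest near 0%. Their median rank was 37.4% to 42.5% across libraries, against 8.7% to 11.2% at stand-alone protein-coding promoters. How far width follows rank was not tested. Width is that of the whole peak, which need not cover the 5′ end.

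**Figure D2:**
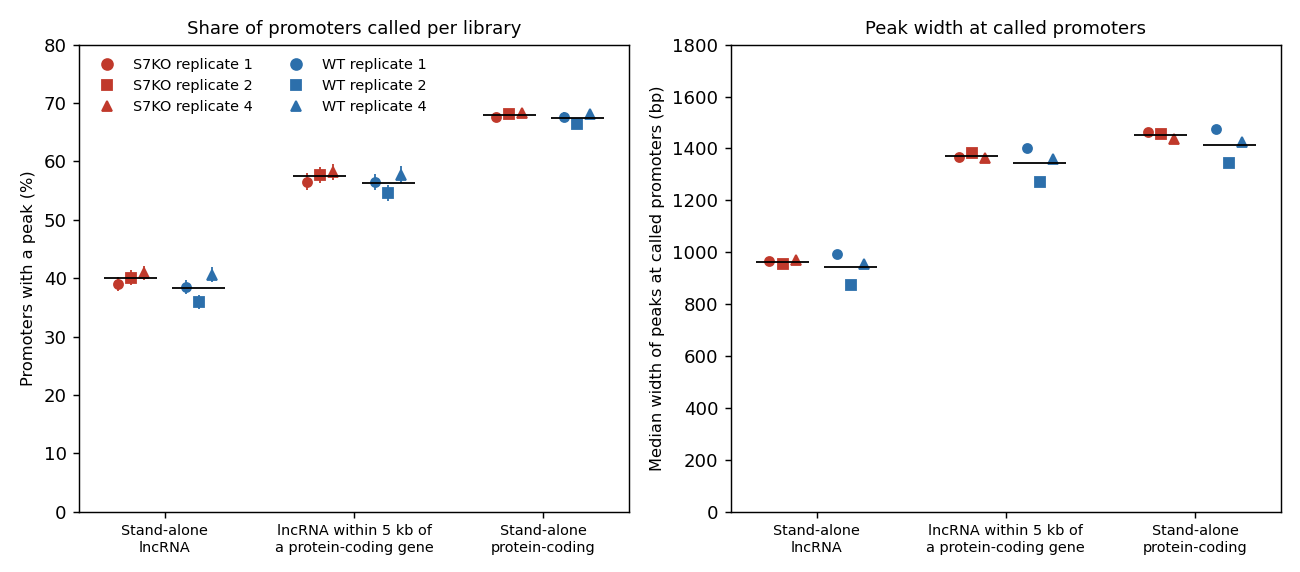
Left, promoters with a peak (%) per library, with vertical lines for the 95% Wilson interval; right, median width (bp) of the peaks at called promoters. Each point is a library (red S7KO, blue WT; circles, squares and triangles for replicates 1, 2 and 4) and each black bar is the mean of 3. Stand-alone lncRNA promoters sit lowest in both panels (35.9% to 40.9%, 873 to 995 bp), and the red and blue points overlap.

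The peaks gathered at the annotated start. At the 5′ end itself, 21.3% to 25.2% of members lay inside a peak, depending on the library, and the highest coverage stood 100 bp downstream in 5 libraries and at the start in WT replicate 2. Coverage fell off on both sides: 500 bp upstream it was 10.6% to 13.6%, 500 bp downstream 15.2% to 18.8%, and 5 kb away 4.23% to 5.79% upstream and 4.02% to 5.63% downstream. At stand-alone protein-coding genes it reached 59.4% to 61.3% at 200 bp downstream, while 5 kb upstream it was 3.54% to 4.70%. The 3′ ends of the same lncRNA genes, read with the same window, were called in 20.2% to 24.9% of cases, close to the 19.2% to 24.0% at the 3′ ends of protein-coding genes. The excess of calls at the 5′ end over the 3′ end was thus present in all 6 libraries, and the gap between lncRNA and protein-coding genes was seen at the start of the gene.

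**Figure D3:**
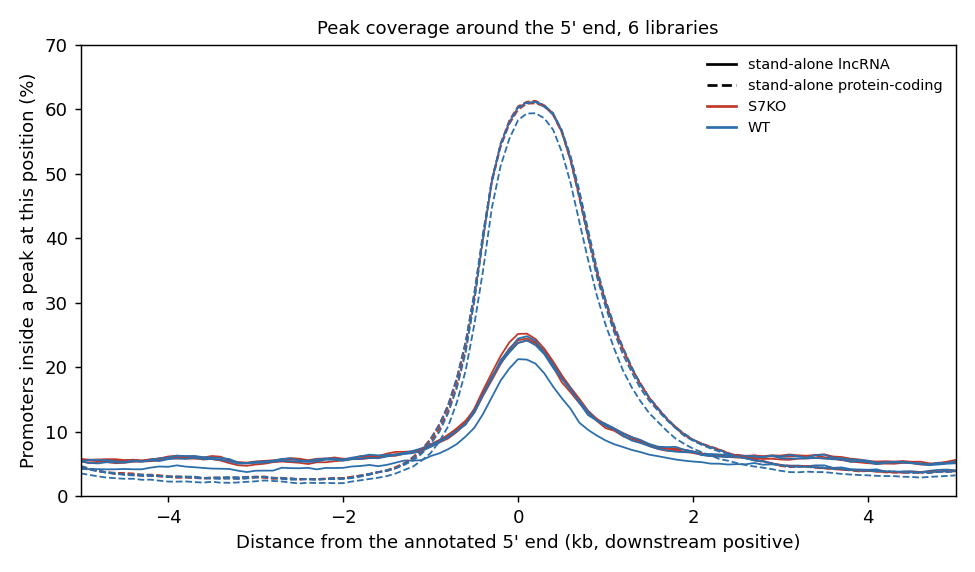
Share of promoters (%) inside a peak at each distance (kb) from the annotated 5′ end, in steps of 100 bp, for stand-alone lncRNA genes (solid) and stand-alone protein-coding genes (dashed) in 3 S7KO (red) and 3 WT (blue) libraries. Solid lines reach 21.3% to 25.2% near the start and dashed lines 59.4% to 61.3%; the lowest line of each kind is WT replicate 2.

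Between the genotypes, none of the 4 measures of these promoters passed the test. The number called averaged 2507 ± 60.4 for the S7KO libraries and 2403.7 ± 149.9 for the WT libraries (SD, n = 3 each), a difference of 103.3 promoters with an exact two-sided permutation p = 0.4 (adjusted p = 0.667 over 4 measures; the smallest p that 3 against 3 libraries allow is 0.1). The median peak width was 963.7 bp ± 8.74 against 941.3 bp ± 62.3, a difference of 22.3 bp (exact permutation p = 0.8, adjusted p = 0.8). The mean covered length per promoter, uncalled promoters counted as 0, was 332 bp ± 7.44 against 310 bp ± 31.0, a difference of 22.0 bp (exact permutation p = 0.3, adjusted p = 0.667). The S7KO and WT libraries overlapped in each of these measures. The median rank of the best peak, as a percentage of its list sorted by q-value with the strongest peak near 0, was 38.1% ± 0.968 against 39.5% ± 2.63, a difference of −1.34 points (exact permutation p = 0.5, adjusted p = 0.667), again with overlapping groups. WT replicate 2 decided much of these differences: without it the number called differed by 25.5 promoters, and the width and the rank changed direction (−11.8 bp and 0.175 points). With all libraries but only the best 105728 peaks of each list, the number called differed by 12.3 promoters. Under that setting the covered length differed by 15.3 bp and the median width by 46.5 bp.

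Few members were called in 1 genotype alone. There were 6 members with a peak in all 3 S7KO and no WT library (0.0957%), where 0.0577% of all gene promoters had that pattern, and 0 members with a peak in all 3 WT and no S7KO library, where the share over all promoters was 0. No region-by-region test was run, since 3 of 3 against 0 of 3 libraries cannot pass one. With 1 library left out the pattern asks for fewer libraries, so the count of 6 could only stay or rise. It was then between 10 (without WT replicate 2) and 37 (without WT replicate 4). The reverse count reached 5 when only the best peaks of each list, in equal number, were used. The share of all gene promoters was not counted under these settings, so these counts have no background beside them. The 6 were Gm30936, Gm1600, Gm12290, Gm39101, Gm30717 and Gm32591, gene models known by number only.

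Gm30936 (chromosome 9, start at 67694193 on the minus strand) had 283, 269 and 338 bp of its window covered in S7KO replicates 1, 2 and 4 and 0 bp in each WT library, where the nearest peak was 5408 to 5450 bp from the start. Gm1600 (chromosome 16) had 300, 798 and 300 bp covered in S7KO and 0 bp in WT, with the nearest WT peak at 2745 to 2778 bp. These calls ranked in the lower part of their lists. The S7KO peaks at Gm30936 ranked at 56.8%, 77.0% and 54.2% of their lists, and those at Gm1600 at 86.7%, 89.0% and 81.7%. At Gm32591 the peaks reached only the outer part of the window, with 480, 37 and 2 bp covered in the S7KO libraries. At each of the 6, the weakest S7KO peak stood at 77.0% of its list or beyond.

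Among promoters open in all 6 libraries, covered length gave a comparable picture. Of the 2086 members, 154 (7.38%) had more bases covered in each S7KO library than in all WT libraries, where 6.09% of all gene promoters open in all 6 had that pattern. The reverse held for 34 members (1.63%), against 1.69% of all such promoters. Both shares were near the background. The median difference in covered length, S7KO minus WT, was 26 bp at the members and 15.7 bp at all promoters, so the lean towards S7KO was shared with promoters in general. These counts and medians were not taken again without WT replicate 2. That library did stand low in another measure, the mean over all promoters. Over all gene promoters, uncalled ones counted as 0, mean covered length was 744.1, 748.5 and 745 bp in S7KO replicates 1, 2 and 4. In WT replicates 1, 2 and 4 it was 748.9, 684.2 and 740.5 bp. Over all members, uncalled ones again counted as 0, the mean difference was 22.0 bp with all libraries and 4.16 bp without WT replicate 2.

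The known lncRNAs were mostly open. Of 84 symbols listed as well-known lncRNAs, 67 were in the gene table and 38 stood alone on chromosomes 1 to 19; 27 of these had a peak in all 6 libraries, 3 in some and 8 in none. Widely expressed nuclear and housekeeping lncRNAs were called throughout for 13 of 14 members, developmental lncRNAs for 7 of 9, pluripotency and germline lncRNAs for 5 of 10, and lncRNAs of the list of imprinted loci for 2 of 5. Among all 6269 members the share was 33.3%. Meg3 and Mirg of the imprinted list, counted as called in none, lie in a stretch without any peak, where the lists may be incomplete. The listed genes are the better studied ones, so the counts describe these genes alone.

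Malat1, whose nuclear RNA is among the most abundant in mammalian cells, had 1273, 1411 and 1357 bp of its window covered in S7KO replicates 1, 2 and 4 and 1273, 1282 and 1403 bp in WT replicates 1, 2 and 4. Neat1, the scaffold RNA of paraspeckles, had 1256, 1978 and 2001 bp in S7KO and 1482, 2001 and 2001 bp in WT. Replicate 1 was the lowest in each genotype at Neat1, and the groups overlapped at both genes. Pvt1, a lncRNA gene beside Myc, had 1755, 1782 and 1862 bp in S7KO and 1862, 1855 and 1808 bp in WT, and Dleu2, the host of the miR-15a and miR-16-1 microRNAs, 1897, 1850 and 1754 bp against 1899, 1716 and 1796 bp. Dancr, which is studied for holding back differentiation, had 1476, 1474 and 1484 bp in S7KO and 1450, 1458 and 1484 bp in WT, so that all 6 libraries lay close together. At Lncpint, a p53-responsive lncRNA, WT replicate 2 stood apart with 507 bp, where the other 5 libraries had 1122 to 1236 bp.

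The snoRNA host genes were called without exception. Snhg4, Snhg5, Snhg11, Snhg15, Snhg17 and Snhg20 had a peak in all 6 libraries (6 of 6). Snhg5 had 1059, 1091 and 1045 bp covered in S7KO and 1073, 1017 and 1091 bp in WT, and its peak ranked within the top 1.42% of every list. Snhg17 had 1286, 1289 and 1292 bp in S7KO and 1368, 1152 and 1185 bp in WT. The genotypes overlapped at both. MicroRNA host genes were called in all 6 libraries for 9 of 13: Mir22hg, which hosts miR-22, and Mirc35hg were covered over the whole 2001 bp in each library, whereas Mir9-3hg, which hosts a miR-9 gene, had 762 to 810 bp in S7KO and 703 to 770 bp in WT. Mir17hg, the host of the miR-17-92 cluster, had no peak in its window, its nearest peak lying 1689 to 1745 bp away in the 6 libraries. Mir155hg and Mir217hg had none either, and Mir124-2hg had a peak in 5 libraries (274 to 678 bp) but not in WT replicate 2.

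Of the 27 known lncRNAs called throughout, the genotypes did not overlap at 3: Halr1, Tunar and Pantr2. All 3 were on the developmental list, of which 7 members were called throughout. They were picked by their values, and the lists were chosen with earlier results of these data known. No trait of that list is therefore read from them. Halr1 (chromosome 6, start at 52102949), a lncRNA of the developmental list, had 1574, 1639 and 1670 bp covered in S7KO replicates 1, 2 and 4 and 1287, 1096 and 1300 bp in WT replicates 1, 2 and 4. All 3 S7KO values lay above all 3 WT values, with means of 1627.7 bp ± 49.0 and 1227.7 bp ± 114.2 (SD, n = 3 each). Tunar (chromosome 12, start at 105336594), a lncRNA studied in pluripotency and neural differentiation, had 1427, 1447 and 1442 bp in S7KO and 1360, 1381 and 1379 bp in WT. The groups were apart there too, but by less, at 1438.7 bp ± 10.4 against 1373.3 bp ± 11.6. Such a separation, with S7KO the higher, occurred at 6.09% of all gene promoters open in all 6 libraries, and no test was run on these genes. Pantr2, next to the Pou3f3 gene, was also higher in S7KO, at 1395, 1442 and 1389 bp against 1375, 1387 and 1380 bp. The lowest S7KO value there (1389 bp) barely exceeded the highest WT value (1387 bp).

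Chaserr, which lies upstream of Chd2 and limits its expression, had 1416, 1497 and 1421 bp in S7KO and 1434, 1313 and 1552 bp in WT. Sox2ot, whose transcript spans the Sox2 gene, had 993, 993 and 1225 bp in S7KO and 1162, 998 and 1009 bp in WT. The genotypes overlapped at both, and Bvht and Carmn, lncRNAs of the cardiac and smooth muscle lineages, were also called in all 6 libraries. Hotair, the lncRNA of the HoxC cluster, had no peak in its window in any library, with the nearest peak 1625 to 1796 bp away. Rmst, a neural lncRNA, had none either, with the nearest peak at 1780 to 2239 bp. Both distances fall outside the 1 kb flank but within 3 kb.

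Among the pluripotency and germline members, Lncenc1, a lncRNA of naive embryonic stem cells, had 969, 948 and 1012 bp in S7KO and 936, 955 and 961 bp in WT. Platr22, one of the Platr genes that were named for transcripts tied to pluripotency, had 959, 916 and 1004 bp in S7KO and 965, 944 and 958 bp in WT, with peaks within the top 5.65% of every list. Platr3, Platr4 and Platr14 were called throughout as well. Platr27 had a peak in 5 libraries and none in WT replicate 4, Platr10 in S7KO replicate 1 (215 bp) and WT replicate 4 (209 bp) alone, and Platr26 in S7KO replicate 2 (269 bp) alone. Platr7 and Platr11 had none. The calls at Platr10 and Platr26 thus rested on 1 or 2 libraries, in both genotypes for Platr10.

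H19, the imprinted lncRNA downstream of Igf2, had 1068, 1003 and 1053 bp covered in S7KO and 1156, 821 and 1125 bp in WT, and the groups overlapped. Snhg11, a snoRNA host gene on the same list, had 1381, 1136 and 1108 bp in S7KO and 1185, 1095 and 1022 bp in WT. Nctc1, which lies near H19, had no peak in its window. Meg3 and Mirg, of the Dlk1-Dio3 locus, lie in a stretch without any peak in any list and are not analysed here beyond the count of the list.

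**Figure D4:**
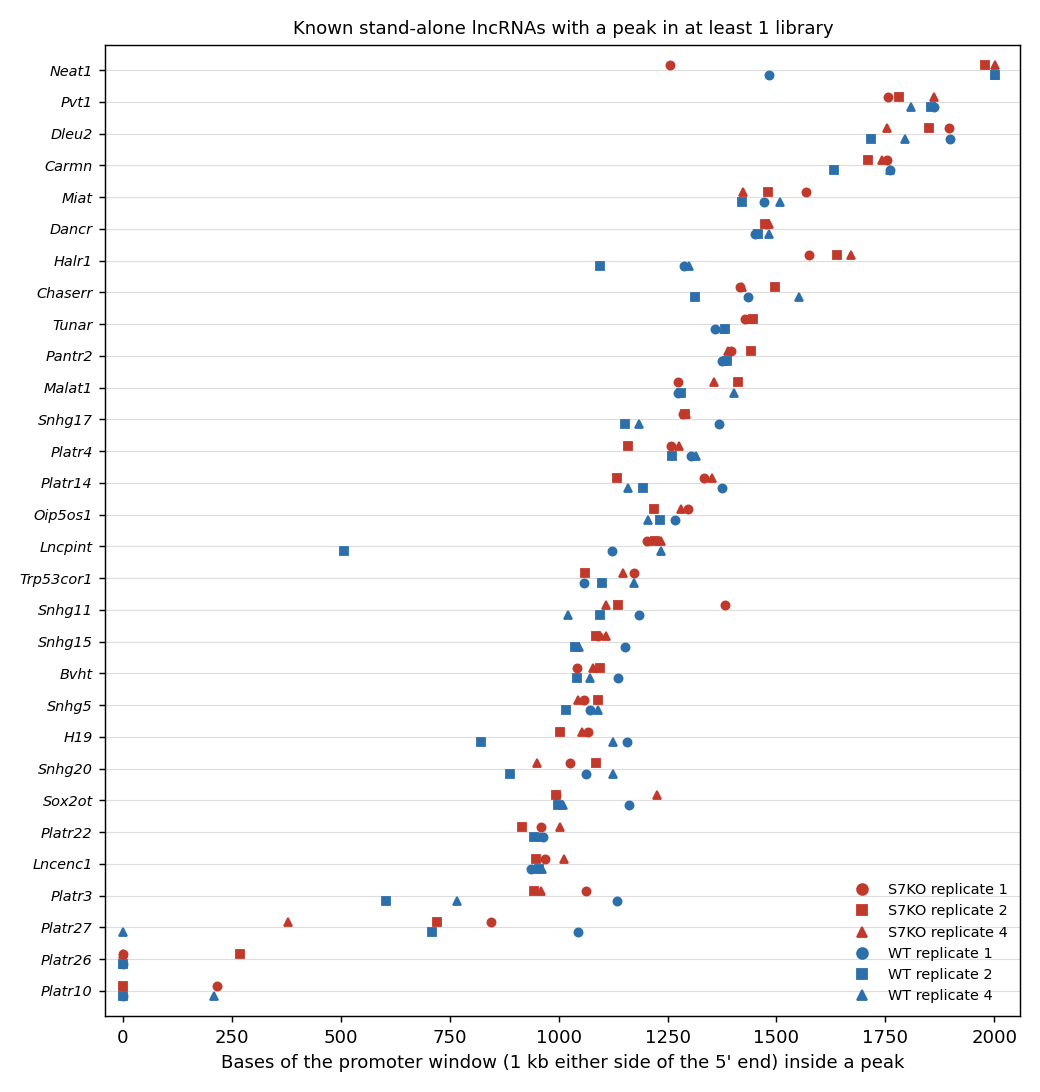
Bases of the 2001 bp promoter window inside a peak for the 30 known stand-alone lncRNAs called in at least 1 library, ordered by their median. Each point is a library (red S7KO, blue WT; circles, squares and triangles for replicates 1, 2 and 4). Values run from 0 bp, at Platr10, Platr26 and Platr27, to 2001 bp at Neat1; the red points lie to the right of the blue ones at Halr1 (1574 to 1670 against 1096 to 1300 bp).

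Of the 12 members with the best-ranked peaks, Snhg5 was the only 1 on the list of known lncRNAs. By the rank of the best peak in its worst library, D130051D11Rik came first: its peak was 892, 915 and 920 bp wide in S7KO and 962, 980 and 1038 bp in WT and stood within the top 0.126% of each list. It has RefSeq transcripts that are predicted only, and its start lies 52775 bp from the nearest protein-coding gene, Wnt7b. There the genotypes did not overlap, with the WT peaks the wider, an order in covered length found at 1.69% of all promoters open in all 6 libraries. Gm33560 (within 0.204% of each list) and Gm40720 (within 0.292%) followed, with 927 to 1394 bp covered in S7KO and 865 to 1027 bp in WT at the former and 943 to 1003 bp against 931 to 1036 bp at the latter. Gm33909, Gm26901, 1700113A16Rik, B930059L03Rik, Gm29638, 2210406O10Rik, 4930555B11Rik, BB557941 and Snhg5 completed the first 12, all within the top 1.42% of every list. The starts of 4930555B11Rik and BB557941 face apart on opposite strands and share 1 peak, so the 12 are not 12 separate sites.

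Only 10 members were inside a peak over all 2001 bp in all 6 libraries. The median over libraries was at this ceiling for 22 members, which covered length cannot order. The 6 of these whose peak ranked best in its worst library were Mir22hg, B330016D10Rik, Gm32700, Gm17762, Gm46560 and 2610307P16Rik. Mir22hg, B330016D10Rik, Gm17762 and Gm46560 were covered completely in every library, whereas WT replicate 2 had 1128 bp at Gm32700 and 1273 bp at 2610307P16Rik. B330016D10Rik starts 7518 bp from Spen and its 300 bases of promoter hold 43 CpG.

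How a gene is annotated went with how often its promoter was open. Members with at least 1 curated RefSeq transcript were called in all 6 libraries for 683 of 1594 (42.8%, 95% Wilson interval 40.4% to 45.3%), and members with predicted transcripts alone for 1403 of 4675 (30.0%, 28.7% to 31.3%). Among Gm gene models, which make up 5114 of the members, the share was 30.9%. RIKEN clones from adult testis libraries, told by the clone prefix, were called throughout for 196 of 507 (38.7%, 34.5% to 43.0%) and other RIKEN clones for 192 of 393 (48.9%, 44.0% to 53.8%). Named lncRNAs outside the host genes reached 83 of 156 (53.2%). These intervals cover counting error only, neighbouring members can share a peak (333 members lay in windows that overlap another member's), and no test between these classes was run.

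Position went with the calls too, again as a description. The share called in all 6 libraries was 39.9% of 1599 members 5 to 20 kb from a protein-coding gene, 35.9% of 2700 at 20 to 100 kb and 24.3% of 1970 farther than 100 kb. By gene span it was 40.6% of 571 members of at most 2 kb and 29.3% of 597 members over 50 kb. Members with another lncRNA start on the opposite strand within 1 kb were called throughout for 129 of 246 (52.4%, 46.2% to 58.6%), and the others for 1957 of 6023 (32.5%). Among the chromosomes with the lowest and highest share, chromosome 14 had 69 of 308 (22.4%) and chromosome 11 had 131 of 316 (41.5%).

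Members called in all 6 libraries were richer in CpG than members called in none. A 300-base promoter sequence at the 5′ end was available for 5092 members (81.2%). The ratio of observed to expected CpG, which is low where methylated CpG was lost in evolution and high in CpG islands, had a median of 0.167 at members called in no library, 0.206 at members called in some and 0.312 at members called in all 6. The share called in all 6 libraries was 18.1% of 2419 members with a ratio up to 0.2, 37.6% of 1809 up to 0.4, 56.2% of 582 up to 0.6, 63.9% of 191 up to 0.8 and 80.2% of 91 above 0.8. The rise was present among lncRNA promoters near protein-coding genes too, from 21.3% to 97.7%. In the lowest classes stand-alone and near promoters were close (18.1% and 21.3% up to 0.2, 37.6% and 39.9% up to 0.4), while between 0.6 and 0.8 the shares were 63.9% and 89.3%. Most members sat in the low classes, so 439 of the open promoters had a ratio of 0.2 or less, Gm40720 and Platr3 among them.

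**Figure D5:**
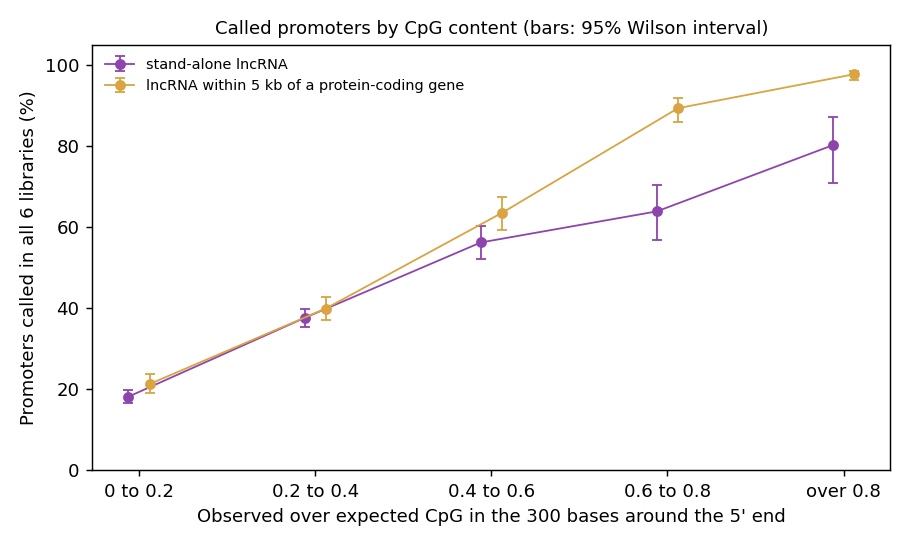
Promoters called in all 6 libraries (%) by the ratio of observed to expected CpG in the 300 bases around the 5′ end, for stand-alone lncRNAs and for lncRNAs within 5 kb of a protein-coding gene; bars are 95% Wilson intervals. Both lines rise with the ratio, from 18.1% to 80.2% and from 21.3% to 97.7%.

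Short motifs were counted in the same 300 bases on both strands. The GC box letters GGGCGG occurred in 17.4% of members called in all 6 libraries, 4.23% of members called in none and 29.9% of all gene promoters with sequence. The ETS letters CCGGAAGT occurred in 2.50%, 0.454% and 3.22% of these sets, the E-box letters CACGTG in 7.68%, 4.26% and 6.75%, and the CRE letters TGACGTCA in 1.34%, 0.594% and 1.71%. All of these hold a CpG and were more frequent at open members. The letters without a CpG went the other way: TATAAA occurred in 14.4% of open and 19.6% of uncalled members (16.4% of all promoters), and CCAAT in 33.9% and 39.9% (38.3%). A match is a string of letters and not a bound site, and none of the 6 strings contains another.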

How the data were processed

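ATAC-seq was carried out on spermatogonia of 3 S7KO and 3 WT Pnd 5 mouse samples. Per the study's methods and the labels, the authors trimmed reads (Trim Galore 0.6.6), aligned them to mm10 (Bowtie2 2.4.4.1), kept unique, non-duplicate, well-mapped reads, removed mitochondrial reads, shifted them for Tn5, kept fragments within a length range and called broad peaks for each library with MACS2 2.2.5. The deposited lists gave each peak's start and end as coordinates and its score, and the authors' caller added the fold enrichment as a ratio and the −log10 p-value and −log10 q-value. Peaks were used here for their position, width and rank by −log10 q; the largest q in any list was 0.0983. Lists hold no read counts, so the authors' DiffBind test was not repeated, and read depth is unknown.

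Genes were those of a RefSeq table of GRCm38.p6. Of 12731 lncRNA genes, 12408 lay on chromosomes 1 to 19 and 11065 had a strand: 9267 from the RefSeq promoter table by gene ID and 1798 from GENCODE vM39 by symbol. Another 24, where the sources differed, and 1319 without a strand were left out. A promoter was called where a peak overlapped the window by at least 1 bp, and covered length is the number of bases of the window inside peaks. Exon positions on this build were not used here.

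Genotypes were compared by 1 value per library with an exact permutation test, two-sided, that ran through all 20 ways to assign 3 and 3 libraries, and promoter classes by the exact sign-flip test over 6 libraries, each with Benjamini-Hochberg adjustment within its family (4 and 3 tests). The tests and the overlap code were checked on simulated data. Members were named by rule: those on the list of known lncRNAs, the 12 best by the rank of the peak in its worst library, 6 with the largest median covered length (ties at the full window settled by that rank) and those called in 1 genotype only. A replicate number was shared by an S7KO and a WT library, but the deviations of same-numbered libraries from their genotype mean correlated at 0.0195 to 0.0885 over 2823 members, below the limit of 0.1, so the numbers were treated as names. The members and lists were chosen with earlier results of these data known. Python 3.11.15, numpy 2.4.6, pandas 2.3.3, scipy 1.17.1 and matplotlib 3.10.9 were used.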

Additional observations from a re-analysis of the deposited data

How the results depend on the processing

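Alternatives were another window (500 bp or 3 kb either side), a distance over 20 kb, at least 200 bp covered, peaks with −log10 q of at least 3, an equal number of peaks per list, merged windows, leaving out each library and a replicate block. Chosen after seeing the data were replicates 1 and 4 only, strand from GENCODE symbols only, any RefSeq start, and no windows in stretches of 100 kb without a peak. Of 72 alternative values of the genotype measures, 68 kept their direction and 4 reversed; their p cannot reach 0.05 in this design, so its side says nothing. Of 51 alternative values of the class differences, all kept their sign and 30 their side of 0.05. Of 51 alternative counts without a test, 31 stayed within 1.5 times.

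The genotype difference in median width reversed without WT replicate 2 (−11.8 bp) and with replicates 1 and 4 only (−7 bp), as did median rank (0.175 and 0.525 points). Leaving out each library gave 25.5 to 175 for the number called, −11.8 to 49.2 bp for width, 4.16 to 31.7 bp for covered length and −2.13 to 0.175 points for rank. With the replicate block the number called differed by 103.3 (exact sign-flip p = 0.25, the smallest 3 pairs allow), and the block changed no call.

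The class differences passed 0.05 except where fewer libraries raised the smallest p: leaving out each library gave −28.8 to −28.2 and −17.8 to −17.5 points and −483.4 to −476.2 bp (exact p = 0.0625), and replicates 1 and 4 only gave −28.2 and −17.5 points and −478 bp (exact p = 0.125). With 3 kb either side the difference from protein-coding promoters shrank to −18.4 points.

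Members called in S7KO alone numbered 16 with 3 kb, 10 with 200 bp covered, 22 with replicates 1 and 4 only and 10 to 37 without each library. With libraries left out, a count of members called in 1 genotype alone can only stay or rise, since fewer libraries must meet the pattern. Members called in WT alone numbered 1 with 500 bp, 1 with 200 bp, 1 with −log10 q of at least 3, 5 with equal peak numbers, 8 with replicates 1 and 4 only and 1 to 5 without each library. The share of all gene promoters with these patterns was counted for the main setting only (0.0577% for S7KO alone and 0 for WT alone). The counts under other settings thus cannot be set against a background. Members called in all 6 libraries ranged from 1448, over 20 kb from protein-coding genes, to 2997 with 3 kb.

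The lists give presence or absence at the authors' cutoff, so a missing peak means that none was called at an unknown depth. Only the outer annotated 5′ end was used; counting any RefSeq start gave 2354 to 2667 called members per library.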

Other observations

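Stand-alone lncRNA promoters of the X chromosome, read in the same way, were called in all 6 libraries for 37 of 169 (21.9%), with 37 to 42 called per library. Jpx, an activator of Xist, had 1401, 1239 and 1337 bp of its window covered in S7KO replicates 1, 2 and 4 and 837, 1436 and 1356 bp in WT replicates 1, 2 and 4. Ftx, which lies beside Xist, had 1210, 1168 and 1138 bp in S7KO and 1212, 1083 and 1102 bp in WT. Firre, a repeat-containing nuclear lncRNA, had 1231, 1198 and 1006 bp in S7KO and 1033, 1031 and 1100 bp in WT. The genotypes overlapped at all of these. Xist, the RNA that silences an X chromosome in female cells, had short coverage: 120, 170 and 126 bp in S7KO and 270, 213 and 203 bp in WT. All 3 S7KO values at Xist lay below all 3 WT values; 1.69% of autosomal gene promoters open in every library had that order, and no test was run on this gene, which was named after its values were seen.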
